A study of Rattus norvegicus with 14 samples.

Results

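The data are messenger RNA levels of INS832/13 cells treated with an anti-miR against miR-338, set against INS832/13 cells treated with a scrambled anti-miR, for the transcript clusters in the upper part of the expression range. A transcript cluster is the set of probes that the array assigns to 1 transcribed unit. The identifiers are not annotated in the values used here, so any sets of control probes among them are counted as clusters. The table lists 29214 clusters, and a cluster entered this set when its mean log2 level over all 6 arrays was at or above the median of the table. Of the 14607 clusters at or above that median, 43 belong to 2 runs of identifiers left out by the rule and 83 repeat the values of another cluster, which leaves 14481 high-level clusters. The lowest of them had a mean level of 7.8144 and the next cluster below the limit one of 7.8138, and the highest reached 14.3.

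The study concerns microRNAs (miRNAs) in the growth of beta-cell mass during pregnancy and obesity. Total RNA came from 3 samples under the anti-miR, whose label is a blockade of miR-338-3p, and from 3 control samples under the scrambled anti-miR. Each was hybridised to a 1-colour whole-transcript array. INS832/13 is a clone of the rat insulinoma line INS-1 that secretes insulin in response to glucose, and the labels call it a pancreatic carcinoma line. All 6 arrays thus come from 1 clonal line. The labels name no dose, duration, culture day or batch. Replicates are called biological without further detail, so a p-value reflects only how far these arrays spread, which may be technical, and the number of arrays limits the precision. Any handling that differed between the 2 groups of arrays cannot be told apart from the treatment.

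A miRNA is a short RNA that guides Argonaute proteins to messenger RNAs carrying a match to its seed, the bases near its 5′ end, and the bound messenger RNA is usually translated less and degraded faster. An anti-miR pairs with a mature miRNA as an antisense strand and keeps it from its targets. MiR-338 is encoded in an intron of Aatk, a gene for a neuronal kinase, and in beta cells a lower level of miR-338-3p has been linked to proliferation and survival. Both mature strands are shown from RefSeq on rat assembly GRCr8, since the labels give the 3p strand as the one blocked, and the capitals mark the seed, bases 2 to 8.
rno-miR-338-3p: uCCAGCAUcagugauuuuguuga
rno-miR-338-5p: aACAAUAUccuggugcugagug
They lie on the minus strand at chr10:105796345-105796367 and chr10:105796381-105796402. The strands have different seeds, and no other mature miRNA in the RefSeq table of 693 names has either seed. The array values used here are not paired with gene symbols, so neither the beta-cell markers of the line, nor Aatk, nor genes with a match to the seed could be looked up, and the block of miR-338-3p itself was not measured.

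The 6 arrays were close to each other. Over the high-level clusters, Pearson's r ran from 0.996 to 0.998 among the arrays of the blockade and was 0.998 for every pair of scrambled arrays, and between the groups it ran from 0.994 to 0.997, across clusters that are not independent replicates. The SD of the deviations from the 6-array mean was 0.0725, 0.0707 and 0.103 log2 units on blockade replicates 1, 2 and 3, against 0.0791, 0.0745 and 0.0727 on scrambled replicates 1, 2 and 3. Blockade replicate 3 thus stood farther from the common mean than the other 5 arrays. Its part in the results on high-level clusters is given by the values without it.

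The blockade came with small changes of level. Over the 14481 high-level clusters the median absolute log2 change, blockade minus scrambled, was 0.0535, which is 1.04-fold. The middle 90% of the changes, from the 5th to the 95th percentile, lay between -0.18 and 0.15. The SD of the changes was 0.106 log2 units, where the spread between replicates alone gives 0.0594 (the root mean square residual SD of 0.0728 scaled for a difference of 2 means of 3 arrays), a ratio of 1.78. The spread of the changes was therefore larger than the replicate spread.

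After normalization, which holds the centre of the changes over the whole table near 0, the median log2 change of the high-level clusters was -0.0036. Of these clusters, 48.2% (6986) had a positive change. The median deviation of the high-level clusters from the 6-array mean averaged 0.00018 ± 0.00024 on blockade arrays and 0.0022 ± 0.0041 on scrambled arrays (SD, n = 3 each). The exact permutation test gave a 2-sided p = 0.6, but 3 against 3 arrays cannot give less than 0.1, so it could not have passed. The sign of this small shift moved with the scaling. When each array was centred on its median the median change was -0.018 and 40.3% were positive, and after quantile normalization it was 0.0086 with 54.6% positive.

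The tails were unequal, with more of the large changes on the lower side. At 0.2 log2 units or more (1.15-fold), 582 clusters were lower under the blockade (4.02%, background 3.88% of the whole table). Higher were 277 (1.91%, background 2.7%). At 0.3 or more (1.23-fold) the counts were 204 lower (1.41%, background 1.63%) and 35 higher (0.242%, background 0.531%). The shares of falls were thus near those of the whole table, and the shares of rises were below them. At 0.5 or more (1.41-fold) 43 were lower, 0.297% of the high-level clusters against a background of 0.435% of the whole table, and 0 were higher, against 0.0513% of the whole table. Among all 29214 clusters, 127 were lower and 15 higher at this size. This background includes the 2 identifier runs left out by the rule, which hold 31 of the 127. Of the distinct clusters below the median level, 0.366% were lower by this size. The largest fall was -1.12 and the largest rise 0.48. Leaving out 1 array gave 40 to 53 clusters lower by 0.5 and 1 to 5 higher, with the most rises (5) without scrambled replicate 1. Centring each array or quantile normalization gave 46 or 39 lower and 0 higher.

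**Figure D1:**
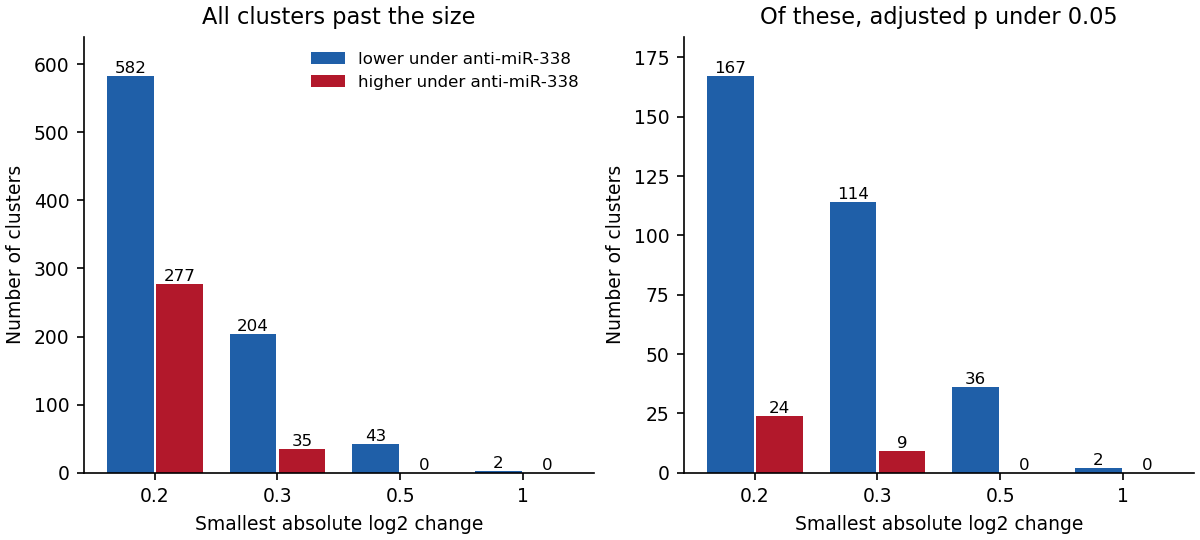
Number of high-level clusters (vertical axis) whose absolute log2 change reached the size on the horizontal axis, lower (blue) or higher (red) under anti-miR-338, for all such clusters (left) and for those at a limma adjusted p under 0.05 (right). Bars for falls exceed bars for rises at each size, with 43 against 0 at 0.5.

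The changes were tested with limma over the whole table, with Benjamini-Hochberg adjustment and a threshold of 0.05. Of the 14481 high-level clusters, 193 passed (1.33%), against 251 of 29214 in the whole table (0.859%). Lower under the blockade were 168, which is 1.16% of the high-level clusters against a background of 0.753%. Higher under the blockade were 25, 0.173% against a background of 0.106%. Both counts moved with the fit. There were 345 lower and 133 higher with a prior variance that follows level. When clusters under the 25th percentile of level were left out there were 322 lower and 112 higher. Array weights gave 261 lower and 71 higher. Quantile normalization gave 175 lower and 52 higher, and ordinary variance 41 lower and 11 higher. Of the calls with ordinary variance, 35 were among the 193. With the replicate number as a block, 19 were lower and 0 higher. Falls outnumbered rises in each of these fits. At an unadjusted p under 0.05, 1546 were lower (10.7%, background 6.94%) and 1282 higher (8.85%, background 8%). Together they made 19.5% against a background of 14.9%. At this looser limit falls outnumbered rises by less among the high-level clusters, and over the whole table rises outnumbered falls (2336 against 2028).

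The 168 clusters that fell had log2 changes from -1.12 to -0.20 with a median of -0.34, or 1.26-fold. Their mean deviation from the 6-array mean was -0.198, -0.194 and -0.202 on blockade replicates 1, 2 and 3, against 0.189, 0.203 and 0.202 on scrambled replicates 1, 2 and 3. These clusters were chosen by the same contrast, so this is a description, and the 3 arrays of a group gave nearly the same value. The highest blockade array lay below the lowest scrambled array for all 168, by 0.163 to 0.904 log2 units with a median gap of 0.255.

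The 25 clusters that rose changed less, from 0.20 to 0.48 with a median of 0.27, or 1.202-fold. Their mean deviation was 0.133, 0.141 and 0.149 on blockade replicates 1, 2 and 3, against -0.134, -0.129 and -0.160 on scrambled replicates 1, 2 and 3. The groups of all 25 did not overlap, with gaps of 0.168 to 0.348. Such separation was common: the blockade arrays lay wholly above the scrambled arrays for 1926 high-level clusters (13.3%, background 11.1%) and wholly below for 2166 (15%, background 9.33%), most of them without passing the test.

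**Figure D2:**
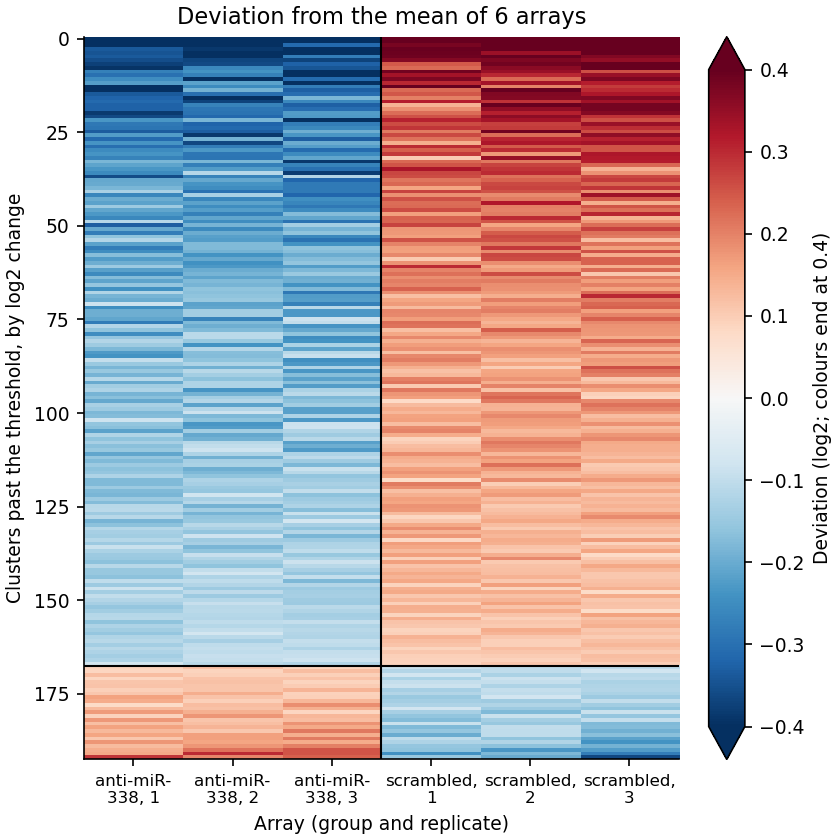
Deviation of each of the 193 high-level clusters past the threshold from its mean over 6 arrays, in log2 units (colour, blue below and red above the mean), with the clusters ordered by log2 change down the page and the arrays across it, anti-miR-338 left of scrambled. The 168 clusters above the horizontal line are lower on all 3 blockade arrays and the 25 below it are higher.

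The number of calls depended on having all 6 arrays. Without blockade replicate 1, 2 or 3 it was 25, 26 or 39, and without scrambled replicate 1, 2 or 3 it was 33, 22 or 26. Of the calls in these fits, 0 or 1 were rises. Of the 193, 19 passed in all 6 of these fits and 141 in none, and all 19 had fallen, with changes of -1.12 to -0.39, at mean levels from 7.89 to 11.9. Large falls were not always called. Of the 43 clusters that were lower by at least 0.5, 36 passed, and the other 7 had residual SDs of 0.146 to 0.447 log2 units where the 36 had 0.0101 to 0.121. In all 7 the blockade array farthest from its group mean was replicate 3.

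The 2 largest falls and the 2 largest rises past the threshold are given by identifier. Cluster 10891949 had log2 levels of 7.95, 7.74 and 7.73 on blockade replicates 1, 2 and 3, against 8.98, 8.86 and 8.95 on scrambled replicates 1, 2 and 3. All blockade arrays were low and the groups lay 0.904 apart. It averaged 7.81 ± 0.125 under the blockade and 8.93 ± 0.0646 under the scrambled anti-miR (SD, n = 3 each), which is 2.18-fold lower (log2 change -1.12, SE 0.07, limma adjusted p = 0.00264).

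Cluster 10858655 had log2 levels of 8.10, 8.29 and 8.10 on blockade replicates 1, 2 and 3, against 9.26, 9.30 and 9.17 on scrambled replicates 1, 2 and 3. Blockade replicate 2 was the highest of its group and still 0.881 below the lowest scrambled array. It was 2.12-fold lower under the blockade (log2 change -1.08, SE 0.07, limma adjusted p = 0.00236). Both falls were called in 14 of 15 other fits, with changes of -1.19 to -1.08 for cluster 10891949 and -1.15 to -1.05 for cluster 10858655. The exception was the ordinary variance without moderation, with adjusted p-values of 0.0514 and 0.0501.

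Cluster 10909849 had log2 levels of 9.27, 9.19 and 9.23 on blockade replicates 1, 2 and 3, against 8.84, 8.79 and 8.63 on scrambled replicates 1, 2 and 3. The scrambled arrays were the more spread, and the groups lay 0.348 apart. Its log2 change was 0.48 (SE 0.06, limma adjusted p = 0.0374), or 1.39-fold higher, and without each array in turn the change was 0.42 to 0.52 and never passed (adjusted p = 0.0798 to 0.156). With ordinary variance the call was also lost (adjusted p = 0.136).

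Cluster 10723297 had log2 levels of 9.77, 9.91 and 9.87 on blockade replicates 1, 2 and 3, against 9.37, 9.44 and 9.34 on scrambled replicates 1, 2 and 3. The lowest blockade array stood 0.333 above the highest scrambled array. Its log2 change was 0.47 (SE 0.05, limma adjusted p = 0.0197), or 1.38-fold higher. It lost its call without blockade replicate 2 (adjusted p = 0.0953) or 3 (0.0832) and without scrambled replicate 1 (0.112), 2 (0.0984) or 3 (0.109), and with ordinary variance (0.0979). By absolute size these rises ranked only 50 and 57 among the high-level clusters.

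**Figure D3:**
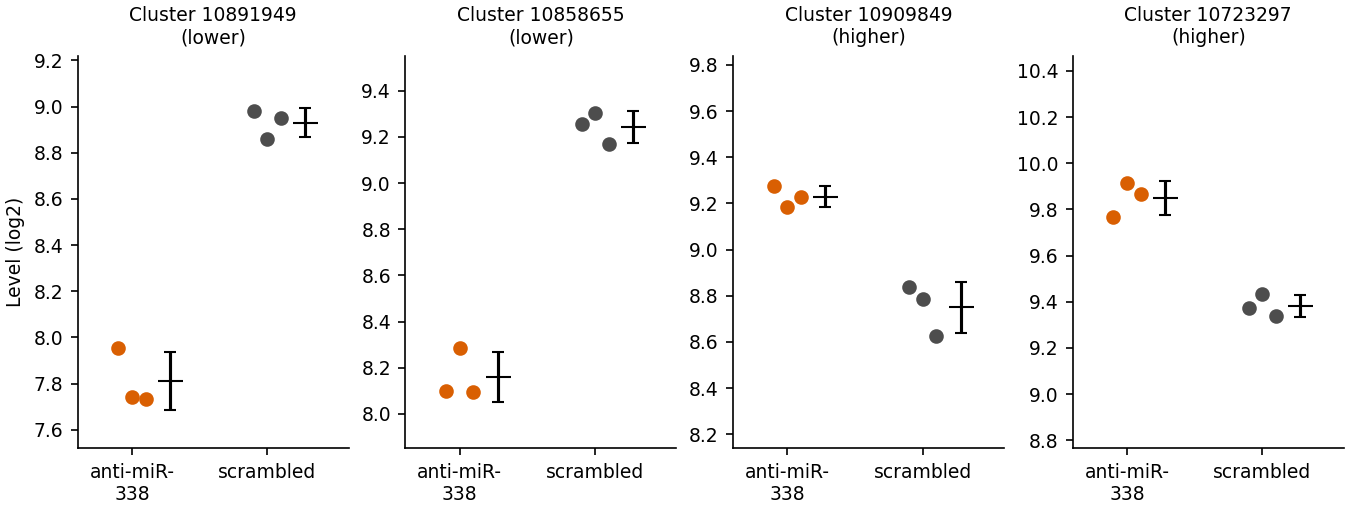
Log2 level on each array (points) and mean ± SD of 3 arrays (bars) for the 2 largest falls and 2 largest rises past the threshold, anti-miR-338 left of scrambled, with vertical axes of equal span. The falls of -1.12 and -1.08 log2 units are larger in size than the rises of 0.48 and 0.47.

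The normalization within RMA brings the arrays to nearly the same distribution. This limits the centre of the changes over the whole table and their slope on level. The values on direction by level describe what is left after normalization. The slope of the log2 change on level was -0.0016 log2 units per log2 unit over the high-level clusters. Pearson's r was -0.021 and Spearman's rho -0.054 across clusters, given as a description. The slope was -0.0055 for clusters from the 40th percentile of level and -0.0044 with the level taken from the scrambled arrays. By array, the slope of the deviations averaged -0.00079 ± 0.0060 on blockade arrays and 0.00079 ± 0.0027 on scrambled arrays (SD, n = 3 each) (exact permutation p = 0.8, 2-sided, in a design that cannot reach the threshold). Blockade replicates 1, 2 and 3 had slopes of 0.0041, 0.0010 and -0.0075, against 0.0025, -0.0023 and 0.0022 on scrambled replicates 1, 2 and 3. Blockade replicate 3 lay apart from the other 5 arrays, and without it the slope was 0.0018.

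The high-level clusters were divided into 5 bins of equal size by level. The median change was 0.0123 in bin 1 (levels 7.81 to 8.66), -0.0049 in bin 2, -0.0090 in bin 3, -0.0034 in bin 4 and -0.0068 in bin 5 (levels 11.3 to 14.3). The share with a positive change was 55.0% in bin 1, and 47.8%, 45.0%, 48.2% and 45.2% in bins 2 to 5. Exact permutation tests of the array medians gave 2-sided p = 0.3 to 0.7 (each 0.7 after Benjamini-Hochberg adjustment over the 5 bins), and no bin could have passed with 3 against 3 arrays. In bin 1 the array medians were -0.00061, 0 and 0.0163 on blockade replicates 1, 2 and 3, against -0.0040, 0.0028 and -0.0040 on scrambled replicates 1, 2 and 3. The highest of them was that of blockade replicate 3. Without 1 array the median change of bin 1 stayed positive, from 0.0048 (without blockade replicate 3) to 0.0159 (without blockade replicate 1). After quantile normalization it was 0.0135.

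**Figure D4:**
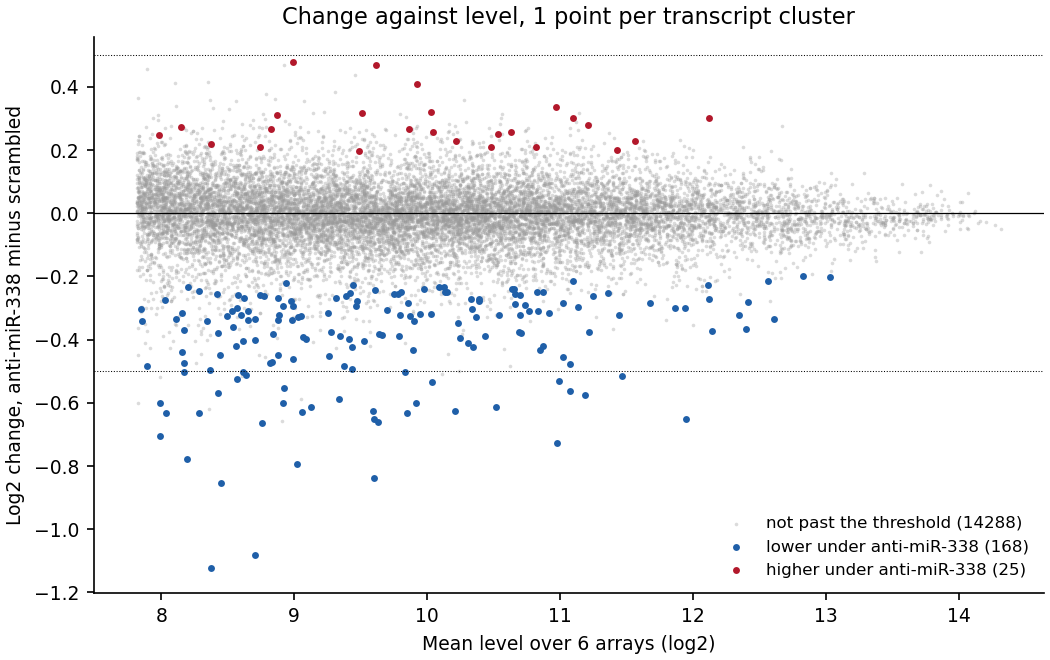
Log2 change, anti-miR-338 minus scrambled (vertical axis), against the mean log2 level over 6 arrays (horizontal axis) for each of the 14481 high-level clusters, with those past the threshold in blue (168 lower) and red (25 higher). Dotted lines mark changes of 0.5, which 43 clusters pass below and 0 above, and the cloud narrows towards high levels.

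The size of the change did depend on level. The SD of the log2 change was 0.124, 0.114, 0.107, 0.1002 and 0.0780 in bins 1 to 5, and the median absolute change was 0.0651 in bin 1 and 0.0420 in bin 5. The replicate spread narrowed as well: the SD it gives for a difference was 0.0756, 0.0636, 0.0553, 0.0524 and 0.0457 in bins 1 to 5. The ratio of the observed SD to this value was 1.64, 1.80, 1.94, 1.91 and 1.71, so the ratio was largest in bins 3 and 4. Across clusters, Spearman's rho with level was -0.135 for the absolute change and -0.275 for the residual SD.

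**Figure D5:**
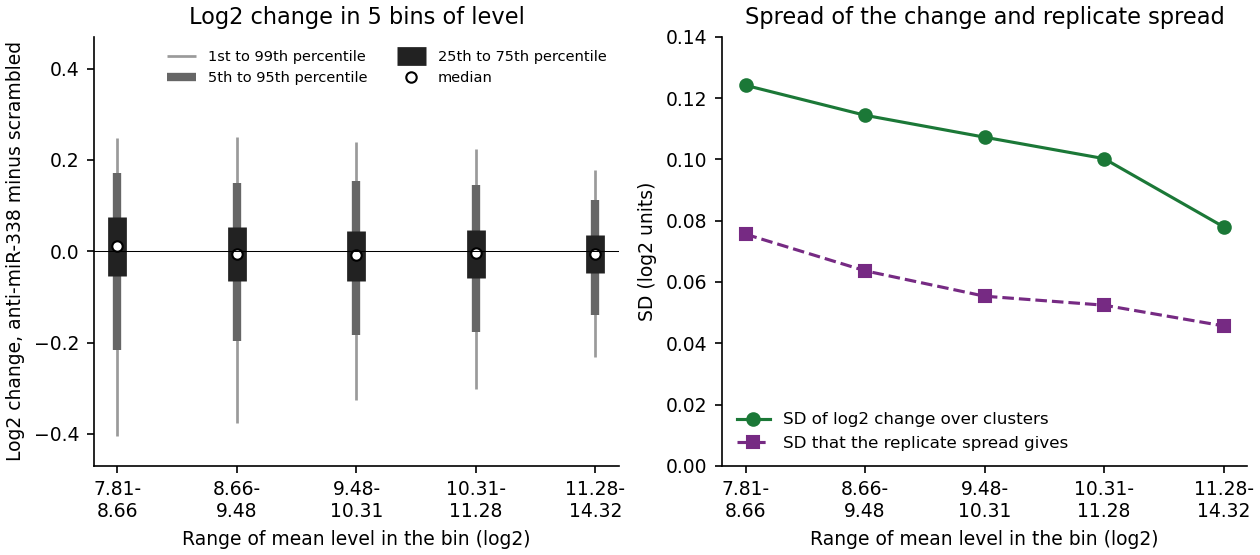
Left, the log2 change in 5 equal bins of level (horizontal axis), as the median (circle) and the ranges between the 25th and 75th, 5th and 95th, and 1st and 99th percentiles (bars). Right, the SD of the log2 change over the clusters of each bin (green) and the SD that the replicate spread gives for a difference of 2 means (purple), where the first is 1.64 to 1.94 times the second.

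The unequal tails were present in each of bins 1 to 5. The 1st percentile was -0.41, -0.38, -0.33, -0.30 and -0.23 in bins 1 to 5, where the 99th percentile was 0.25, 0.25, 0.24, 0.22 and 0.18. Clusters lower by at least 0.5 numbered 16, 10, 10, 5 and 2 in bins 1 to 5. Calls numbered 39, 43, 33, 36 and 17 on the lower side and 3, 4, 8, 7 and 3 on the higher side. In this fit the top bin had the fewest calls, 20 of 2896 clusters (0.691%), while bins 1 to 4 had 1.42% to 1.62%. That order depended on how the variance was modelled. With a prior variance that follows level the calls in bins 1 to 5 were 60, 82, 109, 126 and 101, and with ordinary variance they were 4, 12, 9, 18 and 9, so that bin 1 had the fewest in both. The called falls had a median level of 9.60 and the called rises one of 10.03, against 9.89 for all high-level clusters. The smallest absolute change that passed was 0.219, 0.208, 0.196, 0.210 and 0.198 in bins 1 to 5.

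The 14495 distinct clusters below the median level, outside the same 2 identifier runs, gave 27 calls (0.186%), 21 lower and 6 higher. Their median change was 0.0298 and 64.9% were positive, against -0.0036 and 48.2% for the high-level clusters. The centre did thus differ between low and high levels on these normalized values. Over the whole table, blockade replicate 3 had the highest 25th percentile of level (6.29, against 6.22 to 6.26 on the other arrays). Its median level was also the highest (7.84, against 7.81 to 7.82). The part of this array in the difference was not tested. The changes of the clusters below the median level had an SD of 0.116, close to that of the high-level clusters. Their replicate spread gave 0.0966, however, a ratio of 1.198 against 1.78 for the high-level clusters. Lower by at least 0.5 were 53 and higher 15, of which 12 passed in all. At 0.2 or more the counts of these clusters were nearly equal, 513 lower and 512 higher. In the 2 identifier runs left out, 31 of 61 clusters were called and all 31 were lower. These are counts from 1 fit, and no test of the difference between the sets of clusters was made.

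Most called high-level clusters stood alone in the numbering of the array. The rule had already left out 2 runs of identifiers that hold 31 called falls, so this does not describe all falls on the array. Of the 168 high-level clusters that fell, 8 (4.76%) had another within 10 identifier numbers, where 1.67% of all high-level clusters had a fallen cluster that near, and of the 25 that rose 0 had another risen cluster that near. The 8 formed 2 groups, the larger with 6 clusters within a span of 15 identifier numbers. These 6 were the only high-level clusters in that span and all fell, with log2 changes of -0.79 to -0.48, at levels from 9.02 to 11.1 (limma adjusted p from 0.00149 to 0.0377). What the identifiers stand for is not annotated in the values used here, so this is a description of the numbering.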

How the data were processed

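The authors deposited log2 levels made by RMA (robust multi-array averaging), and the submitters' processing notes name affy and R 2.9.2. RMA corrects background, normalizes quantiles between arrays and summarises probes, so a change shared by all transcripts cannot be seen and changes of dim clusters are compressed. The build and annotation behind the clusters were not given in the sources used here. Columns were matched by sample accession, and no array repeats another. Differences, blockade minus scrambled, were estimated on R 4.3.3 by limma 3.58.1, using lmFit and then eBayes with 2-sided tests and no block, on all 29214 clusters and checked on artificial data. Exact permutation tests used 1 value per array over the 20 arrangements. Named clusters are the 2 largest rises and 2 largest falls past the threshold with non-overlapping groups. The clusters, rules and alternatives were chosen with earlier results of these data known. Planned gene lists, markers and seed matches need gene symbols and were not used here. The islet miRNA arrays of the study were not analysed here.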

Additional observations from a re-analysis of the deposited data

How the results depend on the processing

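The number of calls did not hold between fits. With the replicate number as a block, 19 high-level clusters passed, 0 higher and 19 lower, all 19 among the 193. Of these 19, 13 also passed in all 6 fits without 1 array. With the block, clusters 10909849 and 10723297 lost their calls (limma adjusted p = 0.117 and 0.0798). The labels do not state that the numbers pair cultures. Deviations of same-numbered arrays from their group means correlated at 0.190, 0.205 and 0.0955 over the high-level clusters and at 0.0517, 0.0842 and 0.0287 over the distinct profiles of the table. Each array correlated best with its own number over the high-level clusters, but over the table scrambled replicate 3 did not. Calls came to 52 (11 higher, 41 lower) with ordinary variance, 478 (133 higher, 345 lower) with a prior variance that follows level, 434 (112 higher, 322 lower) when clusters under the 25th percentile of level were left out of the fit, and 332 (71 higher, 261 lower) with array weights. Quantile normalization gave 52 higher and 175 lower. The cause of these differences was not tested. Without 1 array, calls ran from 22 to 39, rises among them from 0 to 1 and falls from 22 to 39. The median change ran from -0.005432 to -0.0001835, the slope on level from -0.00403 to 0.001779 and the clusters higher by 0.5 from 1 to 5.

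The median change was -0.01828 (40.31% positive) with each array centred on its median, 0.008581 (54.59%) after quantile normalization and 0.002323 (51.2%) for clusters from the 40th percentile of level, where 1 was higher by 0.5. From the 60th percentile 27 were lower by 0.5. The slope turned positive at 0.0004262 with array weights and 2.107e-06 after quantile normalization. It was also positive from the 60th percentile (0.000838) and with the level taken from the blockade arrays (0.001243). It was -0.005495 from the 40th percentile and -0.004389 with the level taken from the scrambled arrays. Counts of clusters past 0.5 under other settings were added after the data were seen. The number of arrays limits all of these values, and the depth of signal over background is not given in them.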
